A study of Mus musculus with 11 samples.

Results

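The 26S proteasome and its regulators were followed through the differentiation of C2C12 myoblasts by collecting every array probe whose gene symbol began with Psm, a letter from a to g and a digit. This selection by name used no measured value, though it was made with earlier results of these data known. It took 67 of the 25697 probes of the array and 45 of its 16593 gene symbols. Of these, 55 probes of 40 genes passed the detection filter and were tested, among 12753 probes and 8659 genes tested in all. Psmc3ip and Psme3ip1 matched by name but encode no part of the proteasome, which left 43 true components, 38 of them tested.

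The proteasome degrades proteins that have been tagged with ubiquitin. Its 20S core is a barrel of stacked rings, in which outer alpha rings gate the entrance and inner beta rings carry the proteolytic sites. The 19S regulatory particle caps the barrel, and its lid removes ubiquitin while the ATPases of its base unfold the substrate and open the gate. Dedicated chaperones assemble both particles, the Psme activators can replace the 19S cap, and interferon-induced beta subunits replace the standard catalytic subunits in the immunoproteasome. In skeletal muscle the pathway is known for the removal of regulatory proteins during differentiation and for the loss of myofibrillar protein in atrophy.

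C2C12 is a mouse myoblast line that fuses into multinucleated myotubes when serum is withdrawn. Total RNA was compared between Day 0, when the undifferentiated cells grew in medium with fetal bovine serum, and Day 6 in a medium with horse serum instead. Each day had 5 samples, labelled as replicates. All samples are of this one line, carry no other treatment, and are bulk RNA of the whole culture, so a smaller share of expressing cells and less mRNA per cell cannot be told apart in any value given here. Signals came from Illumina bead arrays and are given as normalised log2 signal, and a gene with several tested probes is represented by the one of highest mean signal.

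The arrays were alike in brightness, with median raw signals between 56.6 and 64.3, and 44.7% to 48.7% of probes detected per array. All 5 tested myotube markers were higher at Day 6. Among them Mef2c, a muscle transcription factor detected in all samples of both days, was higher by 4.18 on the log2 scale. Ckm was detected in 1 Day 0 sample and 5 Day 6 samples. It passed the detection filter only through Day 6, so its call is not independent of the filter. Of the 3 tested myoblast markers Ccnd1 and Id1 were lower and Myod1 was higher by 0.96 (limma adjusted p = 0.0357), and Myf5 was undetected. Of 6 leukocyte and macrophage markers 4 had a probe and 0 passed the filter, and the adipocyte markers and the endothelial markers Pecam1 and Cdh5 were undetected on every array, while the endothelial marker Tek was detected in 1 Day 0 and 3 Day 6 samples and changed by 0.08. Of the osteoblast markers Ibsp was undetected and Bglap was higher at Day 6 by 2.73, and its part in the proteasome values was not tested. One sample stood apart from its label in some of these markers. Myog mRNA, which encodes the differentiation factor myogenin, had a log2 signal of 8.64 in Day 0 replicate 5. It was 4.45 to 5.75 in the other Day 0 samples and 9.89 to 10.48 at Day 6. Acta1 (12.31), Tnnc2 (9.55), Ckm (5.52) and Myod1 (9.07) were also at their Day 0 highest in replicate 5. Mef2c (6.80) was instead at its Day 0 lowest there, and Ccnd1 (11.95) and Id1 (8.52) lay within the range of the other Day 0 samples. Results that rest on this sample are therefore given with and without it. The sample descriptions also carry a part written E1 to E4, of unstated meaning, under which this sample and Day 6 replicate 5 share E4.

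Most proteasome mRNAs did not pass the test between the days. Of the 38 tested components, 2 were higher at Day 6 (Psmc3 and Psmd10), 4 were lower (Psma7, Psmb2, Psmg1 and Psme3) and 32 did not pass (limma, adjusted p under 0.05 over all probes tested). The called share was 15.8%, on an array where 45.2% of genes were called, 21.0% higher and 24.2% lower. The 95% interval of the change lay inside 2-fold for 33 of the 38 components, against 60.8% of all genes, and only Psme3 changed by at least 2-fold, as did 18.9% of all genes. The median absolute log2 change was 0.24 for the components and 0.43 for all genes, and the signed median was -0.03 for both.

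**Figure D1:**
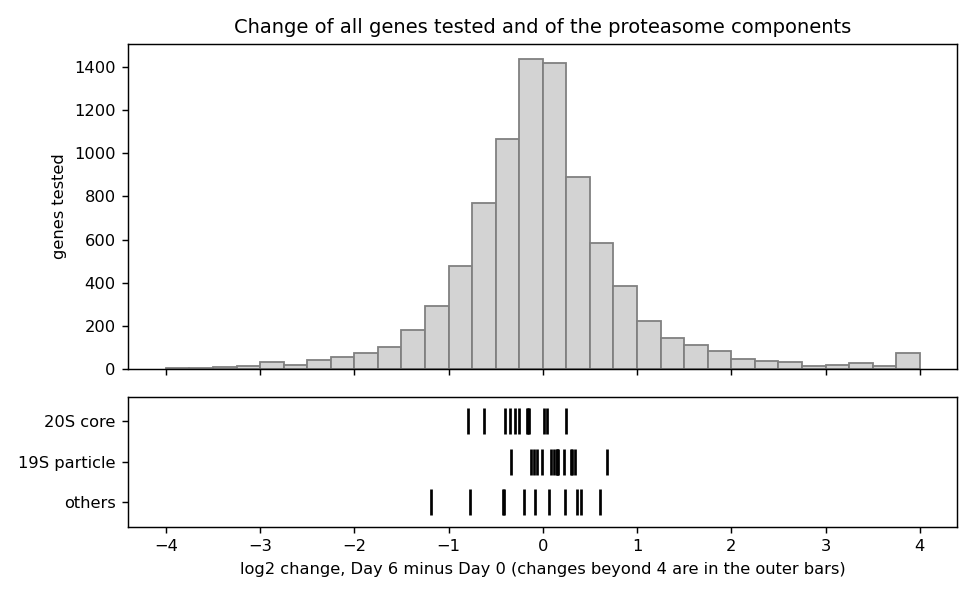
Number of tested genes (y axis, upper panel) in bins of log2 change from Day 0 to Day 6 (x axis, log2 units), with the 38 proteasome components as ticks in the lower panel, split into the 20S core, the 19S particle and all others. The ticks lie between -1.19 and 0.68, inside a distribution of all genes that reaches well beyond them on both sides.

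By probe, 3 of the 55 were higher and 7 lower, where 44.4% of all tested probes were called (20.5% higher and 23.8% lower), and at an unadjusted p under 0.05 the counts were 5 and 10. Of the 12 member probes that did not pass the detection filter, 9 were undetected on every array. The days did not overlap in 4 components (Psmb2, Psmg1, Psmc3 and Psme3), where 32.5% of all genes showed no overlap. Sorted by position in the particle, the 12 core subunits had a median log2 change of -0.21, with 9 negative and 3 positive, and the 15 subunits of the 19S particle had a median of 0.15, with 5 negative and 10 positive. Without Day 0 replicate 5 the core median was -0.23, with 11 negative, and the 19S median was 0.03, with 6 negative and 9 positive. With equal array medians they were -0.34 and -0.02, so the 19S particle had no settled direction. These signs describe values that mostly did not pass the test, and the difference between the particles was not tested. Bringing the arrays to equal medians moved the median of all probes from -0.04 to -0.13. Both higher calls were then lost, and the 6 lower genes were Psma7, Psmb2, Psmg1, Psme3, Psmg3 and the name match Psmc3ip. Calls also fell over the whole array in that fit, from 44.4% to 35.8% of all tested probes.

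**Figure D2:**
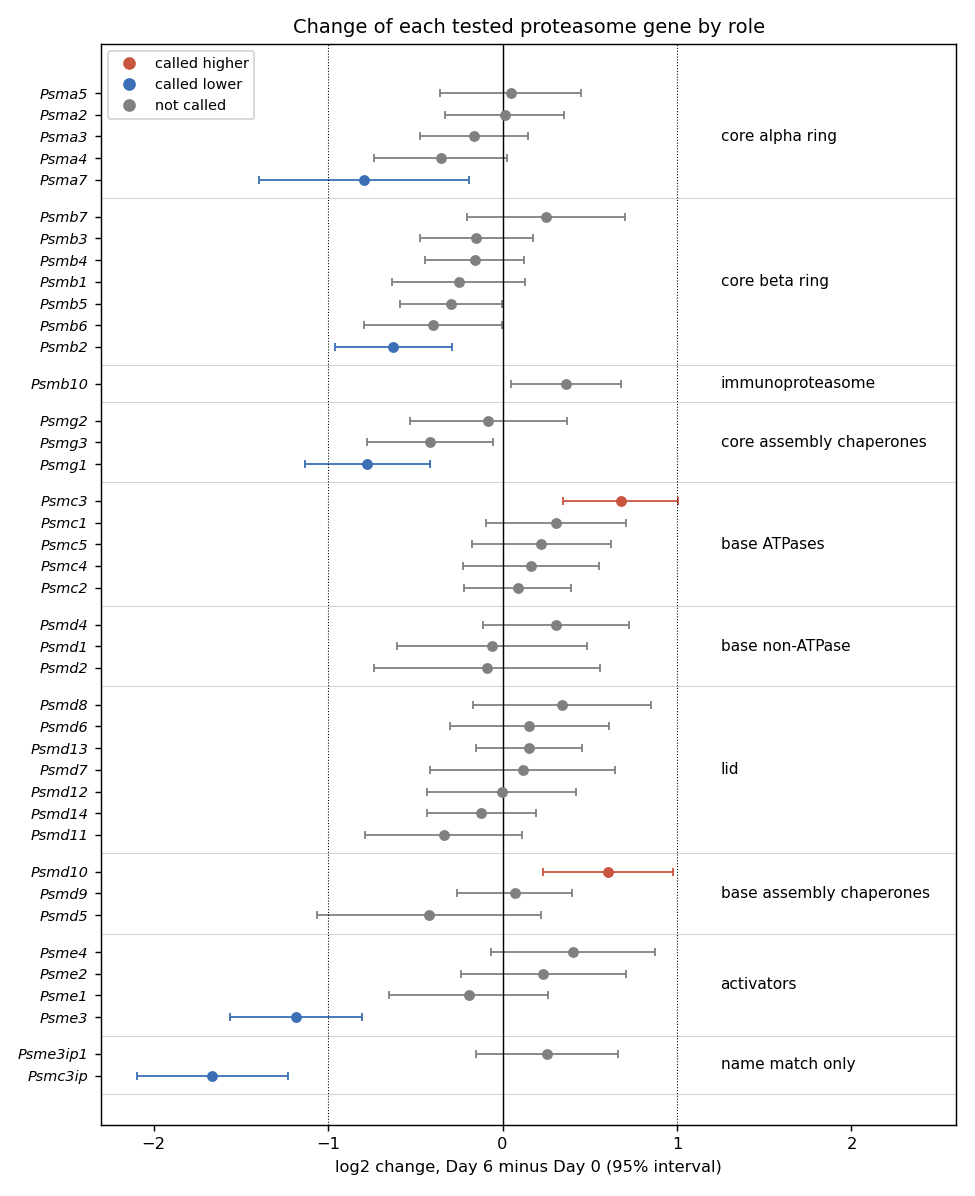
Log2 change from Day 0 to Day 6 (x axis, log2 units, bars 95% intervals) for the 40 tested genes, grouped by role in the proteasome. Blue and red points mark genes called lower and higher at Day 6, and most grey intervals cross 0 inside the dotted lines at 2-fold.

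In the alpha ring, 5 of the 7 subunits could be tested. Psma7, the alpha4 subunit, fell. Its log2 signal in Day 0 replicates 1 to 5 was 11.42, 11.51, 11.78, 11.75 and 10.09, and in Day 6 replicates 1 to 5 it was 10.30, 10.30, 10.49, 10.59 and 10.89. Every Day 0 sample but replicate 5 lay above all Day 6 samples, while replicate 5 lay below them all, so the days overlapped. The mean went from 11.31 ± 0.70 to 10.51 ± 0.24 (SD, n = 5), a log2 change of -0.79 (SE 0.28, limma adjusted p = 0.033), or 1.73-fold. Without Day 0 replicate 5 the change was -1.10 (adjusted p = 8.8e-05). The call was lost when any one of 8 other samples was left out, with adjusted p between 0.0525 and 0.0806, and it was kept without Day 6 replicate 5. A second Psma7 probe gave -0.68 (adjusted p = 0.048), with Day 0 replicate 5 again the lowest sample at 9.63.

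The other alpha subunits did not pass the test. Psma4, the alpha3 subunit, whose tail closes the pore in yeast, had a change of -0.35 (95% interval -0.73 to 0.03, limma adjusted p = 0.123), which became -0.48 (adjusted p = 0.0195) without Day 0 replicate 5. Psma3 changed by -0.16 (interval -0.47 to 0.15) and Psma2 by 0.01 (interval -0.33 to 0.35). Psma1 and Psma6 had a single probe each, undetected on all 11 arrays, and give no information on their mRNAs.

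All 7 standard beta subunits were tested, and 6 had a negative change, with a median of -0.25. Psmb2, the beta4 subunit, which has no catalytic site, fell. Its log2 signal was 12.04, 11.99, 12.34, 11.86 and 11.79 in the Day 0 replicates and 11.41, 11.23, 11.09, 11.62 and 11.54 in the Day 6 replicates. Each Day 0 sample lay above each Day 6 sample. With an SD of 0.21 at Day 0 and 0.22 at Day 6 (n = 5), the log2 change was -0.63 (SE 0.16, limma adjusted p = 0.00504), or 1.54-fold. The two-sided exact permutation p was 0.00794, the smallest that 5 samples against 5 allow. A second probe also gave -0.63 without overlap (adjusted p = 0.0184), and a further Psmb2 probe was detected in 1 sample only.

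The 3 subunits with catalytic sites did not pass the test. Psmb6, the beta1 subunit with caspase-like activity, changed by -0.40 (95% interval -0.79 to -0.01, limma adjusted p = 0.0928). Psmb5, the beta5 subunit with chymotrypsin-like activity and the main target of proteasome inhibitor drugs, changed by -0.29 (SE 0.14, adjusted p = 0.0956). The signal of Psmb5 was dim, with means of 6.10 at Day 0 and 5.80 at Day 6, where Psmb6 had 10.82 and 10.42. Psmb7, the beta2 subunit with trypsin-like activity, changed by 0.25 on its brightest probe, and its other tested probes gave 0.40 and 0.04. Psmb3, a structural subunit, had the smallest beta change, -0.15 (interval -0.47 to 0.17).

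Of the immunoproteasome subunits only Psmb10 was measurable. The interferon-induced subunits Psmb8 (beta5i) and Psmb9 (beta1i) were undetected in all samples of both days. Psmb10 (beta2i) had log2 signals of 7.76, 7.67, 7.29, 7.42 and 7.60 at Day 0 and of 7.77, 7.69, 8.06, 7.95 and 8.11 at Day 6. All Day 6 samples but replicate 2 exceeded every Day 0 sample, and replicate 1 did so by a narrow margin. The change of 0.36 (95% interval 0.05 to 0.68) missed the threshold with a limma adjusted p of 0.058, and the second Psmb10 probe gave 0.16 (adjusted p = 0.55). Over the alternatives the adjusted p of Psmb10 ran from 0.035, without background correction, to 0.547, with its second probe, and with only the first or only the second array of Day 0 replicate 5 it was 0.0921 or 0.0422.

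The chaperones that build the alpha ring had negative changes in 3 of 3 tested genes. Psmg1, which pairs with Psmg2 to scaffold the ring, fell. Its log2 signal was 8.27, 8.44, 8.55, 8.14 and 7.94 in the Day 0 replicates and 7.66, 7.30, 7.15, 7.73 and 7.61 in the Day 6 replicates. The days did not overlap. The change was -0.78 (SE 0.17, limma adjusted p = 0.00188), or 1.71-fold, from 8.27 ± 0.24 to 7.49 ± 0.25 (SD, n = 5), and -0.86 without Day 0 replicate 5. Its partner Psmg2 changed by -0.08 (95% interval -0.53 to 0.37), and the difference between the partners was not tested. Psmg3, a chaperone acting on the same ring, changed by -0.42 (interval -0.78 to -0.06, adjusted p = 0.0587).

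**Figure D3:**
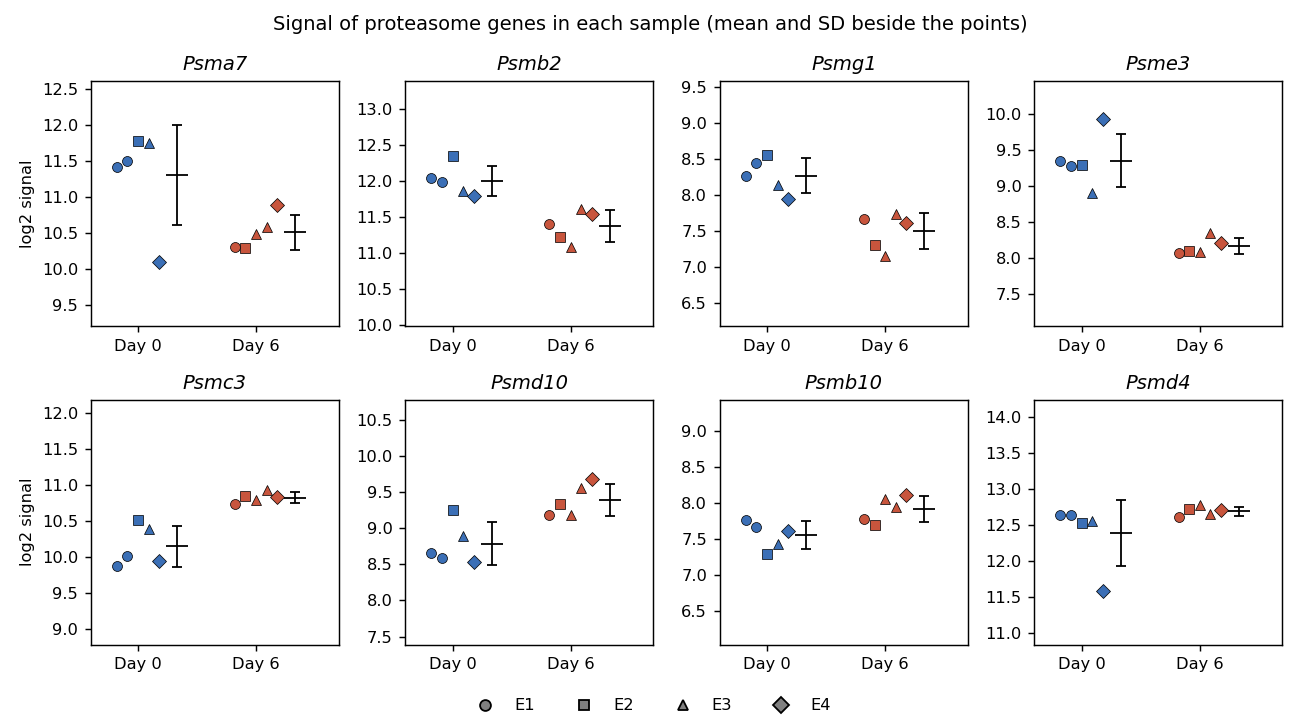
Normalised log2 signal (y axis) of 8 proteasome genes in each sample of Day 0 and Day 6 (x axis), 1 point per sample, the shape giving the E part of its description, with the mean and SD beside the points. Psmb2, Psmg1, Psme3 and Psmc3 separate the days, and the low Day 0 diamond, replicate 5, stands out for Psma7 and Psmd4.

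In the base of the 19S particle, the changes of the 5 tested ATPases were all positive, with a median of 0.22. Without Day 0 replicate 5 the median was 0.16, with all 5 positive. It was 0.05 with equal array medians and 0.04 without both E4 samples, each time with 1 ATPase negative. The common sign of the ATPases was therefore not settled. Psmc3 (Rpt5), whose tail docks into the alpha ring and helps to open the gate, rose. Its log2 signal was 9.87, 10.01, 10.52, 10.38 and 9.95 in the Day 0 replicates and 10.73, 10.85, 10.79, 10.93 and 10.83 in the Day 6 replicates. The Day 6 values lay close together and above all Day 0 values. The means were 10.15 ± 0.28 and 10.83 ± 0.07 (SD, n = 5), a log2 change of 0.68 (SE 0.15, limma adjusted p = 0.00271), or 1.60-fold, and the exact permutation p was 0.00794. The call of Psmc3 was kept in all 10 fits that left out 1 sample, and lost with equal array medians (change 0.51, adjusted p = 0.109).

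The other ATPases gave smaller values. Psmc1 (Rpt2), which also takes part in gate opening, changed by 0.31 (95% interval -0.09 to 0.71), Psmc5 (Rpt6) by 0.22 (interval -0.17 to 0.62) and Psmc2 (Rpt1) by 0.09 (interval -0.22 to 0.39). A second Psmc5 probe had a change of -0.06, so its probes differed in sign with neither past the test. Psmc6 was detected in 0 Day 0 and 2 Day 6 samples and was not tested.

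Among the other base subunits, Psmd4 (Rpn10), a ubiquitin receptor, had log2 signals of 12.64, 12.64, 12.53, 12.55 and 11.59 at Day 0 and of 12.62, 12.72, 12.77, 12.65 and 12.71 at Day 6. All samples but Day 0 replicate 5 lay between 12.53 and 12.77. Its change of 0.30 (limma adjusted p = 0.226) went to 0.10 without that sample. The scaffold subunits Psmd1 (Rpn2) and Psmd2 (Rpn1) were dim, and changed by -0.06 (95% interval -0.61 to 0.48) and -0.09 (interval -0.74 to 0.56).

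None of the 7 tested lid subunits passed the test, and all 7 intervals lay inside 2-fold. Psmd8 (Rpn12) changed by 0.34 (95% interval -0.17 to 0.85), Psmd11 (Rpn6), a subunit that braces lid and core, by -0.34 (interval -0.79 to 0.11) and Psmd6 (Rpn7) by 0.15 (interval -0.30 to 0.61). Psmd12 (Rpn5) was the least changed, with -0.01 (interval -0.43 to 0.42). Psmd14 (Rpn11), the deubiquitinase of the lid, had a change of -0.12 (interval -0.43 to 0.19). The lid median of 0.12 became -0.08 without Day 0 replicate 5 and -0.06 with equal array medians, so the lid had no settled direction.

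The 3 chaperones of the base differed in their values. Psmd10 (gankyrin), which holds the ATPase Psmc4 during assembly and is also known to bind the retinoblastoma protein, rose. Its log2 signal was 8.66, 8.59, 9.26, 8.89 and 8.53 in the Day 0 replicates and 9.19, 9.33, 9.19, 9.56 and 9.68 in the Day 6 replicates. Day 0 replicate 3 reached into the range of Day 6. The change was 0.60 (SE 0.17, limma adjusted p = 0.0114), or 1.52-fold, from 8.79 ± 0.30 to 9.39 ± 0.22 (SD, n = 5). Of its other probes, one rose by 0.80 without overlap (adjusted p = 0.00327) and one had a change of 0.56 that missed the threshold (adjusted p = 0.102). With equal array medians the change of Psmd10 was 0.43 (adjusted p = 0.153).

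Psmd9, another chaperone of the base, changed by 0.07 (95% interval -0.26 to 0.40). Psmd5, which binds Psmc2, had a change of -0.42 with a wide interval (-1.07 to 0.22, limma adjusted p = 0.278). Its log2 signal was 7.83, 8.23, 7.42, 8.14 and 6.46 in the Day 0 replicates and 7.08, 7.34, 7.52, 7.41 and 6.63 in the Day 6 replicates. Replicate 5 was the lowest sample on both days. Without Day 0 replicate 5 the change of Psmd5 was -0.71 (adjusted p = 0.0146).

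Among the activators, Psme3 gave the largest change of any component. It encodes PA28gamma, a nuclear cap of the 20S core known to promote the degradation of cell cycle inhibitors such as p21 without ubiquitin. The log2 signal of Psme3 was 9.34, 9.28, 9.29, 8.90 and 9.93 in the Day 0 replicates and 8.08, 8.10, 8.09, 8.35 and 8.20 in the Day 6 replicates. Every Day 0 sample exceeded every Day 6 sample, and Day 0 replicate 5 was the highest of all. The means were 9.35 ± 0.37 and 8.16 ± 0.11 (SD, n = 5), a log2 change of -1.19 (SE 0.18, limma adjusted p = 1.1e-04), or 2.27-fold. The exact permutation p was 0.00794, and without Day 0 replicate 5 the change was -1.04 (adjusted p = 4.6e-05).

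The remaining activators did not pass the test. Psme1 and Psme2, which form the interferon-induced cap PA28alpha-beta, changed by -0.19 (95% interval -0.65 to 0.26) and 0.23 (interval -0.24 to 0.71). Psme4 (PA200), a cap known for histone degradation, changed by 0.40 (interval -0.07 to 0.87, limma adjusted p = 0.154), and its dimmer probe by 0.74 (adjusted p = 0.091).

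The genes that matched by name alone are no part of the particle. Psmc3ip (Hop2), a recombination factor of meiosis, had log2 signals of 8.59, 8.43, 8.51, 8.55 and 7.73 at Day 0 and of 6.42, 6.49, 6.52, 7.14 and 6.92 at Day 6. The days did not overlap, and its signal fell by 1.66 (limma adjusted p = 1.8e-05), or 3.16-fold, further than that of any component. Psme3ip1, which encodes a partner protein of PA28gamma, changed by 0.26 (95% interval -0.15 to 0.66).

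The called genes were also compared within each E part. The E2 and E4 parts hold 1 sample per day, and E1 and E3 hold 3 samples each, so these are values with no test. Within E1, E2, E3 and E4 the log2 change of Psme3 was -1.24, -1.19, -0.68 and -1.72, that of Psmb2 was -0.60, -1.11, -0.51 and -0.25, and that of Psmg1 was -0.70, -1.25, -0.69 and -0.32. Psmc3 changed by 0.79, 0.33, 0.47 and 0.88, and Psmd10 by 0.57, 0.07, 0.48 and 1.15. These 5 genes kept their direction in all 4 parts, while Psma7 changed by -1.16, -1.48, -1.21 and 0.80, with E4 opposite to the rest. Some uncalled components also kept 1 sign in all 4 parts. Psmb3, Psmb5, Psmb6 and Psmg3 were negative throughout, and Psmb10, Psmd9 and Psme4 positive. A kept sign therefore does not set the called genes apart, and its share over all genes was not counted.

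**Figure D4:**
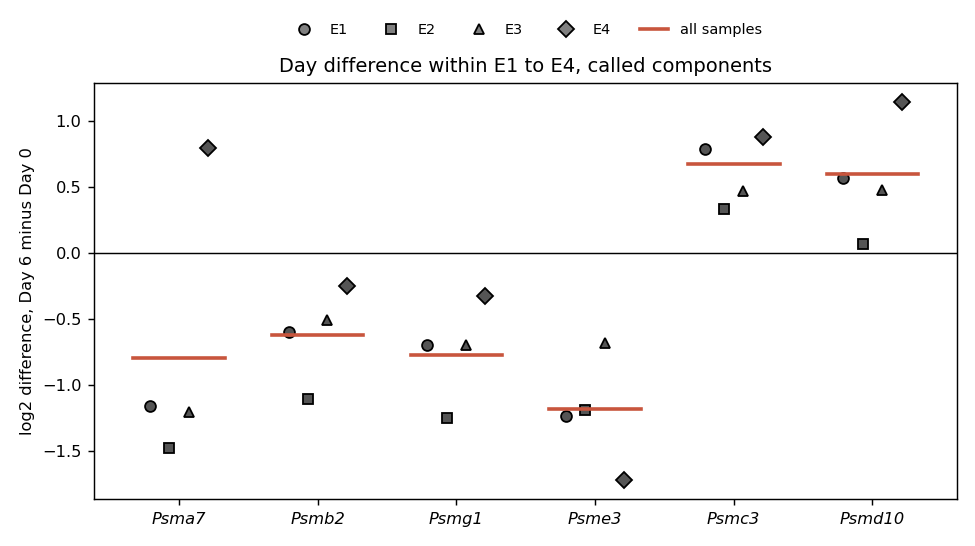
Log2 change from Day 0 to Day 6 (y axis, log2 units) of the 6 called components (x axis) within each E part of the sample descriptions (symbols), with a line for the change over all samples. Psme3, Psmb2, Psmg1, Psmc3 and Psmd10 keep their sign in all 4 parts, and Psma7 is positive in E4 alone, at 0.80. Some uncalled components, not shown, also keep 1 sign.

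Day 0 replicate 5 was the lowest Day 0 sample in 23 of the 38 components (60.5%), against 35.3% of all genes, and it differed from the mean of the remaining Day 0 samples by a median of -0.33 over the components and -0.05 over all genes. The sample was hybridised to 2 arrays, and both were low, with median differences of -0.45 and -0.34. Psma7 read 9.99 and 10.20 on these arrays, and Psmd4 11.68 and 11.49. Day 0 replicate 3 was the highest Day 0 sample in 17 components (44.7%, against 22.8% of all genes), with a median difference of 0.26. Without Day 0 replicate 5, 2 member genes were called higher and 7 lower, the added ones being Psma4 and Psmd5, and the log2 change was -0.68 for Psmb2, 0.63 for Psmc3, 0.54 for Psmd10 and -1.82 for Psmc3ip, all still called. By probe, 3 of the 55 tested member probes were higher and 9 lower in the same fit. The share of all probes called was 48.6%, against 44.4% with the sample. The median SD of the components was 0.35 at Day 0 and 0.22 at Day 6, where all genes had 0.31 and 0.23. The raised myogenin signal of Day 0 replicate 5 accompanied these low values, and its part in them was not tested.

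**Figure D5:**
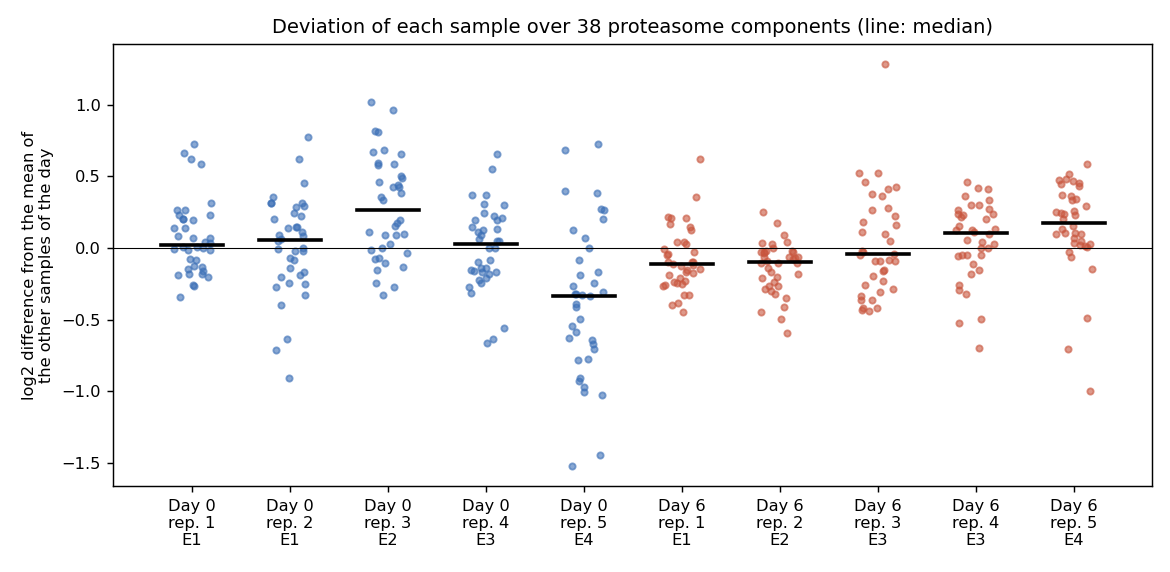
Difference of each proteasome component from the mean of the other samples of its day (y axis, log2 units) in each of the 10 samples (x axis), 1 point per component, with a line at the median. Day 0 replicate 5 has the lowest median, -0.33, and Day 0 replicate 3 the highest, 0.26.

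Genes that work with the proteasome were counted from a separate list of 20, drawn up with earlier results of these data known. Of the 20 genes, 14 had a probe and 12 were tested. Nfe2l1 rose, Uchl5, Ubqln4 and Rad23b fell, and 8 did not pass the test, where 21.0% of all genes were called higher and 24.2% lower. Nfe2l1 encodes the transcription factor that raises proteasome subunit genes when proteasome activity is short, by binding antioxidant response elements in their promoters. Its log2 signal was 9.99, 9.71, 10.55, 9.93 and 10.60 in the Day 0 replicates and 11.66, 11.47, 11.30, 11.13 and 11.32 in the Day 6 replicates. The days did not overlap, and the change was 1.22 (SE 0.19, limma adjusted p = 1.7e-04).

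Uchl5, a deubiquitinase of the 19S particle, had log2 signals of 8.0, 8.05, 7.96, 8.39 and 7.63 at Day 0 and of 6.46, 6.42, 6.88, 6.89 and 7.0 at Day 6. The days again did not overlap, with a change of -1.27 (SE 0.17, limma adjusted p = 5.5e-05). The shuttle factors Ubqln4 and Rad23b, which carry ubiquitinated proteins to the proteasome, fell by 0.93 (adjusted p = 0.0116) and 0.43 (adjusted p = 0.0427), both with overlap. Usp14, a second deubiquitinase of the particle, changed by -0.44 (adjusted p = 0.0758), the core assembly factor Pomp by 0.16 and the small lid subunit Sem1 by 0.10.

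Sequences before the start sites were read from RefSeq for GRCm38.p6, from 250 bases before to 50 after the start, for the 39 of 45 member genes that matched. The core of the antioxidant response element, TGACNNNGC on either strand, was found in 6 of these genes (15.4%), Psmb5, Psmb6, Psmc6, Psmd12, Psmd9 and Psme4, in 3781 of all 27025 genes and in 12.4% of all 32851 windows. Some of these stretches are shown because Nfe2l1, which binds this element, was called higher. The related gene Nfe2l2, on the same list, did not pass the test (change 0.26, limma adjusted p = 0.209). The genes that hold the motif did not pass the test (Psmc6 was not tested), as was so for 32 of the 38 tested components. A part of Nfe2l1 in these values was not tested. Capitals mark the motif or its reverse complement, and each run is given 5′ to 3′ on the strand of its gene.
Psmb5 at chr14:54618018-54618057, minus strand: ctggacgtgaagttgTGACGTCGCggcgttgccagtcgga
Psmd12 at chr11:107479278-107479317, plus strand: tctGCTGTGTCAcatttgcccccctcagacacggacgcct
Psmd9 at chr5:123228144-123228183, plus strand: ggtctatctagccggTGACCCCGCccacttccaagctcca
Psme4 at chr11:30771737-30771776, plus strand: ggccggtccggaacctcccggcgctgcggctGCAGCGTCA
The match in Psme4 reaches the start site itself. A match describes these letters and not a bound site.

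The CCAAT box, the letters CCAAT on either strand, is a common promoter element bound by the factor NF-Y, which is known for cell cycle genes. It was found in 15 of the 39 member genes (38.5%) in 41.1% of all genes and in 37.4% of all windows. The 120 bases before the start site are shown for 4 of the called components, lower for the first 3 and higher for Psmd10. The box or its reverse complement ATTGG is in capitals. The other called components, Psmb2 and Psmc3, were not among the genes with a matched sequence.
Psme3 at chr11:101316093-101316212, plus strand: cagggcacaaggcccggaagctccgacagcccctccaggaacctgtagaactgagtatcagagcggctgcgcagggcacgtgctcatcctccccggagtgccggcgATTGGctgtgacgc
Psmg1 at chr16:95990961-95991080, minus strand: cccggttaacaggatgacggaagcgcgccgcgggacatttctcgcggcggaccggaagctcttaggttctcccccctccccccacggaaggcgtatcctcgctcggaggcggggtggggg
Psma7 at chr2:180042465-180042584, minus strand: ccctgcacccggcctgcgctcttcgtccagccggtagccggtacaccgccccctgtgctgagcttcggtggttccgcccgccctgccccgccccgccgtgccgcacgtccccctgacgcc
Psmd10 at chrX:140956712-140956831, minus strand: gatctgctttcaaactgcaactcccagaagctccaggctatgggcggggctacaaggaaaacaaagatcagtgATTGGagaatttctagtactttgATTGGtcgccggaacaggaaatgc
The stretch of Psme3 holds 1 box, that of Psmd10 holds 2, and those of Psmg1 and Psma7 hold 0, the Psma7 match lying outside the stretch shown.

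For the supply of substrates, 5 of 11 listed genes had a probe. Vcp, the p97 ATPase that extracts ubiquitinated proteins from complexes, changed by 0.21 (limma adjusted p = 0.213), and its cofactor Nploc4 fell by 0.60 (adjusted p = 0.0394). The other 3 did not pass the test, on an array where 45.2% of genes were called.

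Of 10 genes that act with the immunoproteasome in antigen presentation, 5 were tested. Tap2, a subunit of the peptide transporter, was called higher (limma adjusted p = 0.00874), but was detected in 1 Day 0 and 4 Day 6 samples. It passed the detection filter only through Day 6, and its Day 0 level was mostly not above background. Its call is therefore not independent of the filter, and no size is given. Tapbp, which loads peptides onto class I molecules and was detected in all samples, rose by 0.62 (adjusted p = 0.0288). Nlrc5, an activator of class I genes, was called lower (limma adjusted p = 3.7e-04) with detection in 5 Day 0 samples and 1 Day 6 sample. It passed the filter only through Day 0, and its Day 6 level was mostly not above background, so the same limit holds for its call. B2m changed by 0.14 and the interferon factor Irf1 by 0.15. The listed class I genes H2-K1 and H2-D1 were undetected on every array, as was Erap1.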

How the data were processed

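Per the labels, total RNA was hybridised to Illumina mouse bead arrays and read with GenomeStudio 2011.1. The authors deposited non-normalised intensity values with a detection p-value per probe for 11 arrays of 10 samples, and a table of Z-scores, the log signal centred and scaled within each array. The deposited score values served as an alternative. Here signals were background corrected, quantile normalised and log2 transformed with neqc (limma 3.58.1, R 4.3.3, offset 16, background estimated from the detection p-values), and both arrays of Day 0 replicate 5 were averaged. Probes detected at p under 0.05 in at least 3 samples of 1 day were tested with limma, with Benjamini-Hochberg adjustment over all 12753 probes and calls at 0.05. Each gene was represented by its tested probe with the highest mean signal. In each role all tested genes were named where there were 4 or fewer, otherwise the 3 largest changes and the smallest. Psmb7 and Psmd14 fall outside this rule and were named for their catalytic role with their values known. Of the probes, 23978 carry 1 gene symbol and 1719 none. The members and lists were chosen with earlier results of these data known. The limma test was also tried on data simulated with the means and SDs of the tested probes. The limma p-values weigh the difference between the days against the spread between samples of a day, with information on spread shared over all tested probes. The number of samples, 5 per day, limits the precision. Alternatives were the background correction, scaling, detection filter, choice of probe, arrays, blocks, and leaving out each sample. Psma8, Psmb11, Psmd3, Psmf1 and Psmg4 were not analysed here.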

Additional observations from a re-analysis of the deposited data

Results flagged for a closer look

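In each day, the highest or lowest sample of every tested gene was compared with its nearest neighbour (Dixon's criterion). A single group meets the criterion by chance about 1 time in 20. The groups share the same samples and are not independent, so their count cannot be set against that rate. Of the 80 groups, 7 held a sample far from the others. In 6 of the 7 it was Day 0 replicate 5. For that sample the log2 signal of Psma7 was 10.09 (nearest sample 11.42), of Psmd4 11.59 (nearest 12.53) and of Psmd12 9.23 (nearest 9.87). It was 12.04 for Psma2 (nearest 12.56), 10.41 for Psmc4 (nearest 11.11) and 7.73 for Psmc3ip (nearest 8.43). The other case was the high Psmc5 signal of Day 6 replicate 5, 10.62, where the nearest sample was 10.10. Both arrays of Day 0 replicate 5 were low in the components, with median differences of -0.45 and -0.34 from the other Day 0 samples.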

How the results depend on the processing

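The calls of Psmb2, Psmg1, Psme3 and Psmc3ip were kept under all 14 alternatives and all 10 fits without 1 sample. With equal array medians 0 genes and 0 probes were higher. In that fit 35.8% of all tested probes were called in either direction, against 44.4% in the main fit. With the probe of largest SD 1 gene was higher (Psmd10 was then 0.56, limma adjusted p = 0.102). Without both E4 samples 8 genes were lower, Psma4, Psmd5 and Psmg3 being added, and 45.6% of all probes were called. Leaving out 1 sample gave 2 to 3 genes higher, 4 to 7 lower, 3 to 6 probes higher and 5 to 9 lower, the 6 coming without Day 0 replicate 3 and the 7 lower genes without Day 0 replicate 5. The share of all probes called in these fits ran from 39.3% to 48.6%. Psma7 also missed the threshold on the deposited Z-scores (adjusted p = 0.0613) and without a detection filter (adjusted p = 0.106). No called gene changed sign.

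Samples of the same number did not deviate together (correlations of -0.01, 0.03, -0.24, -0.14 and 0.20, with 1 of 5 best matched to its own number), so the numbers were not taken as pairs. With a replicate block 2 genes were higher and 5 lower, and 4 and 6 probes, and the called genes were the same 7. The share of all probes called was then 41.8%. Dim signals limit Psmd1, Psmd2, Psmd6, Psmd9, Psmd11 and Psmb5, and undetected probes give no change for Psma1, Psma6, Psmb8, Psmb9 and Psmc6.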
